A study of Mus musculus with 5 samples.

Results

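The genes described here are 35 interferon-stimulated and RNA-sensing genes, taken by symbol from the 53927 genes in the table of primary mouse nephron progenitor cells. They were chosen for their known roles, except that Slfn5 was included because it was already known to be low in cells without Dis3l2. Nephron progenitor cells are the self-renewing precursors of the kidney's filtering units. The cells came from C57BL/6J embryos and were either Dis3l2+/+ (WT, 2 libraries) or Dis3l2-/- (KO, 3 libraries). Both genotypes were grown in a synthetic niche medium and collected after 1 passage, and total RNA was sequenced as single 50-base reads from stranded libraries. Dis3l2 encodes an exoribonuclease that degrades RNA tailed with uridine, many of its substrates being short structured RNAs. Neither the part of Dis3l2 that was removed nor whether each library came from its own embryo is given in the sources used here. The p-values then reflect variation among these libraries only, some of which may be technical.

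Vertebrate cells recognise foreign or misprocessed RNA through sensor proteins. RIG-I (gene Ddx58) binds base-paired RNA with a triphosphate end, including some transcripts of RNA polymerase III, MDA5 (Ifih1) binds long double-stranded RNA, and both signal through the mitochondrial adaptor MAVS to the transcription factors IRF3 and IRF7. These switch on interferon genes, and secreted interferon acts through its receptor and a complex that includes STAT2 and IRF9 on promoters that carry an interferon-stimulated response element. The genes switched on this way encode antiviral proteins, and many of them encode the sensors and transcription factors themselves. The comparison of genotypes asked whether the build-up of structured RNA in KO cells went with a rise of these genes.

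The promoter letters show what an interferon-responsive start looks like and which members carry its core. Letters below are the 160 bases before the RefSeq start site (build GRCm38.p6), read in the direction of transcription. Capitals mark matches to the response element core on either strand, which is GAAA, any 2 bases and GAAA again, or TTTC, any 2 bases and TTTC on the opposite strand. Overlapping matches run together. Isg15 and Ifit1 are shown as typical interferon targets, Slfn5 as the member whose level was low in KO, and Slfn9 as its neighbour in the same gene cluster.
Isg15 (chr4:156200819-156200978, minus strand): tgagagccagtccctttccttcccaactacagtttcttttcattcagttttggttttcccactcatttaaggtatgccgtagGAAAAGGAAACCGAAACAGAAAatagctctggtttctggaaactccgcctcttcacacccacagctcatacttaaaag
Ifit1 (chr19:34640729-34640888, plus strand): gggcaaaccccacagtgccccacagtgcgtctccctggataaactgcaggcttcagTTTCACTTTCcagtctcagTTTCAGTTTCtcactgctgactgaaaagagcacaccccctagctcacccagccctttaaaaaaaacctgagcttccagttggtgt
Slfn5 (chr11:82951942-82952101, plus strand): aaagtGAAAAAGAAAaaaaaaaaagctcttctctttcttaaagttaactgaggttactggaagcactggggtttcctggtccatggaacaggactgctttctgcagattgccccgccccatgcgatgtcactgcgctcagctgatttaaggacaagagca
Slfn9 (chr11:82991831-82991990, minus strand): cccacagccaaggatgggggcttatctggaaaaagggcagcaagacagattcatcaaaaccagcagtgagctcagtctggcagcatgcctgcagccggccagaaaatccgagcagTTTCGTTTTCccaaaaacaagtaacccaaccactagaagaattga

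Of the 31 members with a RefSeq promoter, 11 carried the core within 250 bases before a start site, or 35.5%, against 3.46% of 27025 genes with a promoter. Isg15 held 3 overlapping matches and Ifit1 held 2 separate ones. The single match of Slfn5 runs into a stretch of adenines. The other carriers were Ifit3, Bst2, Gbp2, Rsad2, Oas1a, Ifitm2, Stat2 and Slfn9. A match is a run of letters and not a measured binding site.

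Some structured RNAs were many-fold higher in KO, while no interferon-stimulated or RNA-sensing gene was found higher by the test. That test called 1 of 14884 genes, so the lack of a call says little by itself. The log2 differences of the tested members lay between -0.73 and 0.37, apart from Slfn5 at -1.14. Of 7 measured structured RNAs, 4 had every KO library over the WT pair, against 7.85% of all genes tested. Of the 7, 1 passed, the vault RNA Vaultrc5 (log2 difference 3.98, limma adjusted p = 0.0471). That call was lost without any single library other than KO replicate 1, with adjusted p between 0.06644 and 0.5129, and with a pseudocount of 5, no filter, median-of-ratios scaling or an Xist term. The Y RNA Rny1, a small RNA polymerase III transcript, was at 161 and 213 CPM (reads scaled to the effective library size, as the authors deposited them) in WT against 1197, 2978 and 2063 in KO, a difference of 3.39 in log2(CPM + 1) that did not pass (limma adjusted p = 0.2327) but did without KO replicate 1 (0.005332). Among the 26 members that reached 0.5 CPM in 2 or more libraries, 12 were higher in KO, where 52.9% of all genes tested were. The other 14 were lower, and the median log2 difference was -0.03, against 0.01 over all 14884 genes tested. Without Slfn5, which was listed for being low, 12 were higher and 13 lower, with a median of -0.03. None of the 26 passed at an adjusted p of 0.05 (limma with Benjamini-Hochberg adjustment over all genes tested), where 0.00672% of all genes were called. At an unadjusted p under 0.05 there was 1 member, Slfn5, and so 0 of the 25 others, against 2.77% of all genes. In 0 of the 25 members other than Slfn5 did all KO libraries exceed the WT pair, a pattern of 7.85% of all genes. In the authors' deposited table, made with edgeR, 2 of the 35 members had an unadjusted p under 0.05, against 2.22% of all genes there. They were Slfn5 and Ifitm1, both lower in KO. Slfn5 alone had an FDR under 0.05, where 0.0315% of all genes were called. Leaving out Slfn5, which was listed for being low, these counts were 1 and 0.

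The width of the intervals says how large a rise these libraries could have missed. The 95% interval of the log2 difference ended below 1, a doubling on the log2(CPM + 1) scale, in 23 of the 26 measured members, and in 93.2% of all genes tested. The exceptions were Isg15, Bst2 and Ddx58, whose upper ends were 1.15, 1.11 and 1.05. The 23 include Slfn5, which was listed for being low in KO, so its end below 1 is no finding. For genes near 1 CPM the added 1 compresses the scale, so a doubling of the level itself is not bounded there. The other 9 members did not reach the filter, and their values are given as reads below.

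Whole-series facts that touch these comparisons are few. Depth, worked out from the spacing of low values, ran from 19.6 to 49.3 M assigned reads, with KO replicate 1 deepest and KO replicate 3 shallowest. Dis3l2 itself was at 16.04 and 12.18 CPM in WT, against 6.50, 4.93 and 4.70 in KO. Mitochondrial ribosomal RNA took 38.9% to 40.7% of the summed values in WT and 31.5% to 32.9% in KO. Xist was above 100 CPM in WT replicate 2 and KO replicates 1 and 2 and below 1 CPM in the others, so each genotype held libraries of both kinds. The progenitor factor Six2 was at 18.97 and 18.82 CPM in WT, against 31.86, 26.51 and 18.58 in KO. Of 11 measured progenitor markers, 7 were higher and 4 lower in KO, and none passed. Osr1 was the 1 with every KO library over the WT pair, against 7.85% of all genes tested. It was at 22.26 and 19.48 CPM in WT, against 41.47, 64.56 and 27.32 in KO. The summed level of 14 leukocyte markers was 9.42 to 10.35 CPM in WT and 6.16 to 7.41 CPM in KO, lower in every KO library. Only 4 of the 14 reached the filter, Cd68, Mrc1, Csf1r and Fcer1g, with 1 higher and 3 lower in KO. In 2 of these 4 every KO library lay below the WT pair, against 6.98% of all genes tested. Ptprc, which defines leukocytes, was at most 0.11 CPM, and Cd3e and Siglech were at 0 in every library. The 8 endothelial markers summed to 67.1 and 88.0 CPM in WT and to between 50.4 and 88.8 CPM in KO. The 8 renal stroma markers summed to 765.88 and 1568.73 CPM in WT, against 771.22, 1364.42 and 1040.92 CPM in KO. Among them Ntn1 was higher and Pdgfra lower in every KO library, as in 7.85% and 6.98% of all genes tested, and neither passed. In such bulk samples, fewer cells of a type and less RNA per cell cannot be told apart.

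Among the sensors, the most abundant per length was Eif2ak2, which encodes PKR, a kinase that halts translation when it binds double-stranded RNA. Its mean was 8.25 CPM per kilobase of exon in WT and 8.10 in KO, against 0.92 and 1.13 for Ddx58, 0.34 and 0.25 for Dhx58, 0.22 and 0.18 for Tlr3 and 0.05 and 0.07 for Ifih1. The genotypes overlapped for each of these genes except Dhx58. The RIG-I gene Ddx58 (ENSMUSG00000040296.15, chromosome 4, 40203773 to 40239828, minus strand, GRCm38) was at 4.78 and 8.25 CPM in WT, against 4.77, 9.23 and 9.92 in KO. The lowest WT and the lowest KO library were thus level, and the groups overlapped (log2 difference 0.24, standard error 0.34, limma adjusted p = 0.999971). Eif2ak2 was at 36.68 and 47.64 CPM in WT, against 33.03, 41.95 and 49.19 in KO, again with overlap (log2 difference -0.03). Ifih1 was at 0.37 and 0.49 CPM in WT, against 0.21, 0.81 and 0.66 in KO. That is 22 reads over both WT libraries and 50 over the 3 KO libraries, so counting error alone is wide, and the gene reached the filter through KO libraries only. Tlr3, the endosomal receptor for double-stranded RNA, was at 0.70 and 1.55 CPM in WT, against 0.47, 1.15 and 1.13 in KO. Dhx58 encodes LGP2, a RIG-I relative that modulates the other sensors. It was at 1.11 and 1.12 CPM in WT, against 1.02, 0.72 and 0.75 in KO (log2 difference -0.21, standard error 0.15, limma adjusted p = 0.999971). Apart from Slfn5, which was listed for being low in KO, all KO libraries fell short of the WT pair in 2 of 25 measured members, Dhx58 and Stat2, as in 6.98% of all genes tested. The leukocyte marker sum and the share of mitochondrial ribosomal RNA were lower in the same libraries, and their part in these values was not tested.

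The adaptor and the regulators of sensing overlapped between genotypes. Mavs was at 15.26 and 12.71 CPM in WT, against 14.28, 13.88 and 14.25 in KO, with all KO libraries inside the WT range. Adar, whose enzyme edits adenosine in double-stranded RNA and so hides it from MDA5, was at 19.11 and 20.78 CPM in WT, against 19.48, 19.06 and 18.62 in KO. Its 95% interval of the log2 difference ran from -0.39 to 0.26. Trim25, a ubiquitin ligase linked to RIG-I activation, was at 6.12 and 8.07 CPM in WT, against 6.41, 5.71 and 6.87 in KO (log2 difference -0.14).

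Of the 5 transcription factor genes, none passed. Irf3, which is present before any infection, was at 20.22 and 18.11 CPM in WT, against 25.34, 27.91 and 16.18 in KO. Its KO replicates 1 and 2 were the highest libraries and KO replicate 3 the lowest (log2 difference 0.23, standard error 0.24). Irf7, which interferon itself induces, was at 0.28 and 0.77 CPM in WT, against 0.62, 1.40 and 0.71 in KO (log2 difference 0.32, standard error 0.23, limma adjusted p = 0.999971). These are 6 and 22 reads in WT and 29, 45 and 15 reads in KO. Irf9, the DNA-binding part of the interferon complex, was at 5.43 and 8.29 CPM in WT, against 4.31, 7.70 and 9.50 in KO, so the KO libraries spanned the WT pair. Its partner Stat2 was at 17.71 and 19.48 CPM in WT, against 12.79, 16.62 and 16.41 in KO, with no overlap (log2 difference -0.28, standard error 0.17, limma adjusted p = 0.999971). Irf1 was at 5.19 and 5.90 CPM in WT, against 4.13, 5.68 and 5.60 in KO.

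The classical interferon targets, other than Ifit2, were low in both genotypes. Isg15, a ubiquitin-like protein that is attached to other proteins after interferon, was at 0.19 and 1.09 CPM in WT, against 0.43, 1.59 and 1.27 in KO. These values rest on 4 and 31 reads in WT and 20, 51 and 27 in KO. For Isg15 the WT libraries stood farther apart than the genotype means of 0.64 ± 0.64 (SD, n = 2) and 1.10 ± 0.60 CPM (SD, n = 3), as in 62.6% of all genes tested. Its log2 difference of 0.37 (standard error 0.33, limma adjusted p = 0.999971) was the highest of the 26 measured members. Ifit1, whose protein binds RNA lacking the host's cap methylation, was at 0.46 and 1.55 CPM in WT, against 0.49, 1.15 and 1.41 in KO. Ifit3 was at 0.56 and 0.81 CPM in WT, against 0.49, 1.00 and 0.75 in KO. It has a near-identical copy, Ifit3b, so its reads are uncertain. Ifit2 stood apart in level, with 7.86 CPM per kilobase in WT against 0.38 for Ifit1 and 0.39 for Ifit3. It was at 28.84 and 32.93 CPM in WT, against 20.35, 26.20 and 35.50 in KO, so the KO libraries held both its lowest and its highest value (log2 difference -0.20, standard error 0.23). Usp18, which removes Isg15 from proteins and dampens interferon receptor signalling, was at 0.19 and 0.42 CPM in WT, against 0.19, 0.47 and 0.47 in KO, below the filter.

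Several antiviral genes were close to absent. Mx1 had 0 reads in both WT libraries and 0, 2 and 1 reads in KO, all at or under a floor of 3 reads per library, so no fold is given. Laboratory strains such as this one are known to carry defective Mx genes. Mx2 had 1 and 6 reads in WT and 7, 6 and 8 in KO. Oas1a, of the oligoadenylate synthetase family, had 0 and 1 reads in WT and 0, 2 and 0 in KO, and near-identical Oas1 copies could share its reads. Oasl1 had 1 and 2 reads in WT and 1, 5 and 2 in KO. Rsad2, which encodes viperin and is among the most inducible of these genes, had 8 and 4 reads in WT and 1, 13 and 3 in KO. These 5 genes therefore had at most 13 reads in any library of either genotype. Oasl2 was higher, at 0.60 and 1.83 CPM in WT, against 0.32, 1.19 and 1.36 in KO (log2 difference -0.17, standard error 0.33).

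For the remaining effectors the WT libraries stood farther apart than the genotype means, as they did in 62.6% of all genes tested. Bst2, or tetherin, which holds budding virus on the cell surface, was at 0.93 and 2.88 CPM in WT, against 1.56, 3.77 and 0.94 in KO. Gbp2, a guanylate-binding GTPase, was at 0.28 and 1.44 CPM in WT, against 0.19, 1.25 and 0.94 in KO. Ifi35 was at 3.57 and 6.99 CPM in WT, against 3.18, 4.93 and 3.95 in KO. For each of these 3 genes WT replicate 2 was well above WT replicate 1, and the genotypes overlapped. Psmb8, an immunoproteasome subunit that replaces a standard subunit after interferon, was at 0.60 and 1.76 CPM in WT, against 0.38, 1.03 and 1.04 in KO. Psmb9, the partner subunit, was at 0.33 and 0.77 CPM in WT, against 0.34, 0.41 and 0.38 in KO, and did not reach the filter.

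The IFITM genes encode membrane proteins that block virus entry, and Ifitm2 and Ifitm3 had the highest WT levels per length of the 35 members. Ifitm2 was at 52.3 CPM per kilobase in WT and 53.3 in KO, and Ifitm3 at 23.8 and 12.9. Ifitm2 was at 31.63 and 36.93 CPM in WT, against 38.38, 35.87 and 30.57 in KO (log2 difference 0.02, 95% interval -0.34 to 0.39). Ifitm3 was at 8.86 and 23.38 CPM in WT, against 5.14, 10.32 and 10.77 in KO. WT replicate 2 was far above every other library, while WT replicate 1 lay below KO replicates 2 and 3. The log2 difference of Ifitm3 was -0.73 with a standard error of 0.44 (limma adjusted p = 0.999971), and without WT replicate 2 it was -0.08. Ifitm1 was at 0.74 and 0.49 CPM in WT, against 0.32, 0.28 and 0.28 in KO, below both WT libraries in each, on 30 reads in each genotype. It did not reach the filter and so has no limma test.

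The Schlafen genes encode interferon-inducible regulators of growth and of RNA, and the 3 members lie together on chromosome 11. Slfn5 (ENSMUSG00000054404.13, chromosome 11, 82951349 to 82964840, plus strand) had 5.52 and 6.04 CPM in WT, against 1.56, 2.28 and 2.49 in KO. Means were 5.78 ± 0.37 (SD, n = 2) and 2.11 ± 0.49 CPM (SD, n = 3). The gap between genotypes exceeded the spread within each, and the log2 difference was -1.14. This is a description and not a test, because Slfn5 was listed for that difference. In the authors' deposited table its log2 fold change was -1.47 (FDR = 0.047). Slfn9 (chromosome 11, from 82978390 to 82991830, minus strand), which lies next to it among the listed genes, was at 18.97 and 24.61 CPM in WT, against 16.98, 23.58 and 27.65 in KO, with overlap (log2 difference 0.04, 95% interval -0.51 to 0.59). Slfn9 has close paralogs, so the assignment of its reads is uncertain. Slfn2 had 1 and 3 reads in WT and 0, 2 and 1 in KO. Of the 6 other Schlafen genes on the list, none reached the filter, and Slfn1 and Slfn4 were at 0 in every library. Both Slfn5 and Slfn9 carry the response element core in the promoters printed above.

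**Figure D1:**
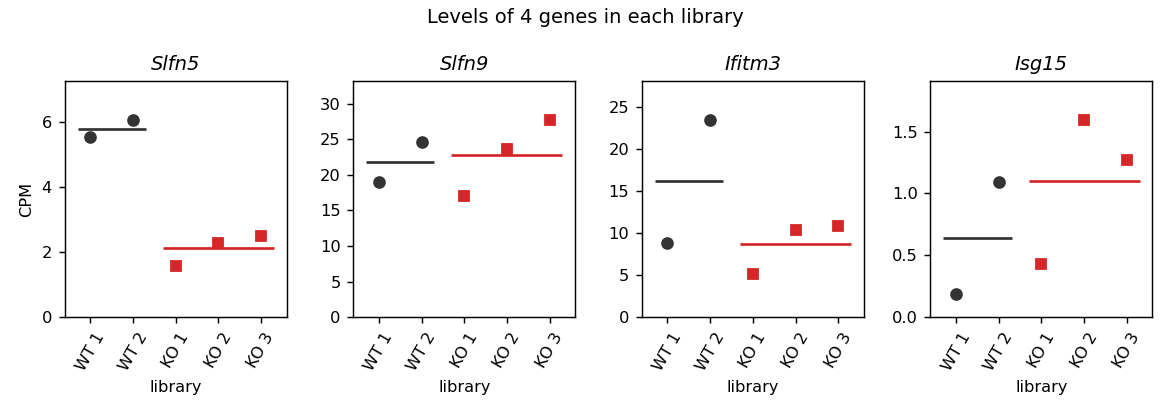
CPM of Slfn5, Slfn9, Ifitm3 and Isg15 in each library, with WT as dark circles, KO as red squares and lines at the group means; each panel has its own axis from 0. Slfn5 is between 1.56 and 2.49 CPM in all 3 KO libraries, below both WT libraries, whereas for the other 3 genes the genotypes overlap.

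Most members differed more between the WT libraries than between genotypes. In 24 of the 26 measured members WT replicate 2 was above WT replicate 1, against 44.7% of all genes tested, with a median log2 gap of 0.36. The gap between the WT libraries was larger than the gap between the genotype means in 21 of 26, against 62.6% of all genes. In KO, replicate 1 lay below both other replicates in 19 of 26, against 5205 of all 14884 genes. In 16 of 26 WT replicate 1 and KO replicate 1 were both below the other 3 libraries, a pattern held by 15.2% of all genes. Members are not independent of each other, and these counts describe 5 libraries. Relative to the WT mean, the median over the 26 was -0.18 and 0.18 in WT replicates 1 and 2 and -0.34, 0.04 and 0.03 in KO replicates 1, 2 and 3.

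**Figure D2:**
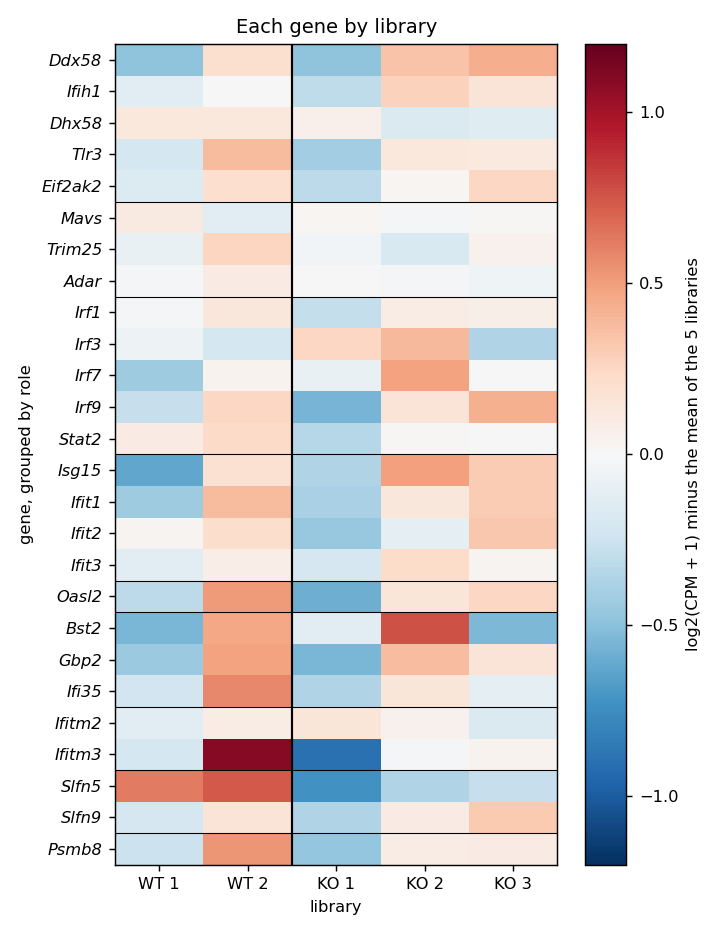
Each of the 26 measured genes in each library, as log2(CPM + 1) minus the mean of the 5 libraries; red is above and blue below that mean, and the vertical line parts WT from KO. Most rows are blue in WT replicate 1 and KO replicate 1 and red in WT replicate 2, with Slfn5 as a row that is red in WT and blue in KO.

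The direction of the summary depended on which libraries were compared. Without WT replicate 1 the median log2 difference was -0.23, with 4 of 26 higher in KO. Without WT replicate 2 it was 0.15, with 18 of 26 higher, and without KO replicate 1 it was 0.07, with 16 of 26 higher. No member passed in any of these 3 fits. Within libraries of high Xist, KO replicates 1 and 2 were below WT replicate 2 on average in 22 of 26, with a median of -0.32, against 6835 of all 14884 genes and 0.03. Within those of low Xist, KO replicate 3 was below WT replicate 1 in 7 of 26, with a median of 0.27, against 7753 of all genes and -0.02. With Xist as a term in the fit, no member passed.

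Other interferon-stimulated genes were low in the same libraries. Of 55 other interferon-stimulated genes, 30 were measured, 12 higher and 18 lower in KO, and none passed (limma, Benjamini-Hochberg). In 23 of these 30 both first replicates lay below the other libraries, against 15.2% of all genes tested. Their median relative to the WT mean was -0.36 in KO replicate 1 and 0.05 and 0.10 in KO replicates 2 and 3. Of 12 measured antigen presentation genes, all 12 were higher in WT replicate 2 than in WT replicate 1, against 44.7% of all genes tested. None of the 12 passed between genotypes. Markers of nephron progenitors ran the other way. In 6 of 11 both first replicates lay above the other libraries, against 16.8% of all genes tested, and the progenitor median was 0.63 in KO replicate 1 and -0.29 in WT replicate 2. Of 7 measured renal stroma markers, 3 had both first replicates below the other libraries and 2 had both above. Over all genes tested the shares were 15.2% and 16.8%. The part of cell composition in these levels was not tested.

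**Figure D3:**
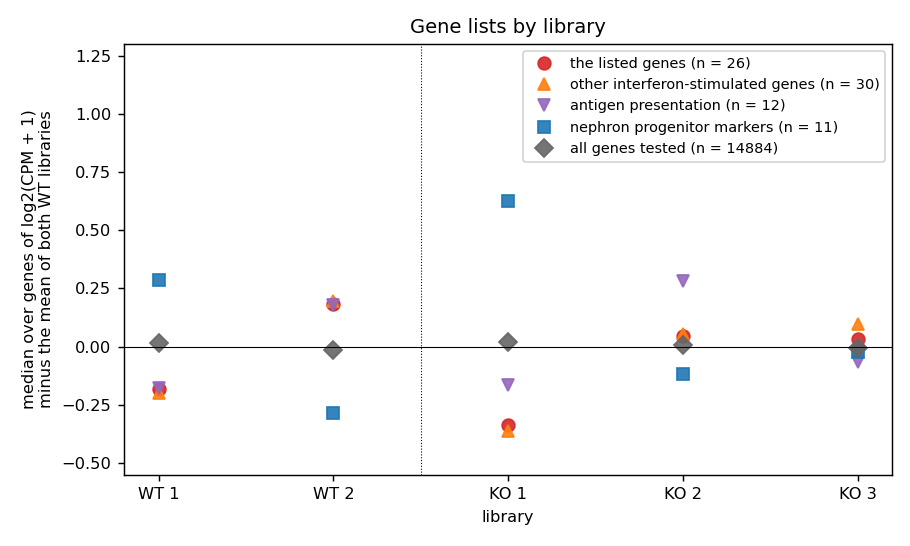
Median over genes of log2(CPM + 1) minus the mean of both WT libraries, for the 26 listed genes, 3 other lists and all 14884 genes tested, by library. The listed genes and other interferon-stimulated genes are lowest in KO replicate 1, at -0.34 and -0.36, where nephron progenitor markers are highest, at 0.63, and the median of all genes is 0.02.

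Among 30 measured interferon-stimulated genes outside the set, Iigp1 was the 1 with all KO libraries over the WT pair, a pattern of 7.85% of all genes tested. Iigp1 encodes an immunity-related GTPase. It was at 5.33 and 5.06 CPM in WT, against 8.76, 10.11 and 14.81 in KO. The log2 difference was 0.95 with a standard error of 0.24 and did not pass (limma unadjusted p = 0.00526, adjusted p = 0.999971). In the authors' deposited table, made with edgeR, its unadjusted p was 0.00069 and its FDR 0.629. No interferon gene was measurable. Of 15 interferon ligand genes, 12 were at 0 in every library, Ifnb1 among them, and Ifnab, Ifnz and Ifng stayed at or below 0.09 CPM, under the level of 3 reads in each library. The receptors were present: Ifnar1 was at 65.71 and 73.41 CPM in WT, against 66.00, 69.67 and 73.08 in KO. Of 15 measured receptor and JAK-STAT genes, 5 were higher and 10 lower and none passed. Tyk2, a receptor-bound kinase, was the 1 of these 15 with all KO libraries over the WT pair (log2 difference 0.34), against 7.85% of all genes tested. Ifnar2 was the 1 with all KO libraries below it, against 6.98% of all genes tested. It was at 16.14 and 16.92 CPM in WT, against 13.34, 14.44 and 15.57 in KO (log2 difference -0.18). Of 21 other measured genes of nucleic acid sensing, 8 were higher and 13 lower and none passed. Tlr7, an endosomal receptor for single-stranded RNA, was at 0.84 and 0.63 CPM in WT, against 0.09, 0.34 and 0.42 in KO. It reached the filter through WT libraries only. It lay below WT in every KO library without passing (limma adjusted p = 0.999971). That pattern was held by 3 of these 21 genes, against 6.98% of all genes tested. Tlr7 is also a gene of macrophages and dendritic cells. Of the macrophage markers, Mrc1 was at 3.85 and 2.95 CPM in WT, against 2.43, 1.37 and 1.60 in KO. Cd68 was also below WT in every KO library, a pattern of 6.98% of all genes tested. Csf1r overlapped, at 0.65 and 1.23 CPM in WT, against 0.79, 1.34 and 1.74 in KO, as did Lyz2 and Fcer1g. Adgre1, Aif1 and Tyrobp stayed at or below 0.04 CPM in every library of both genotypes. The part of macrophages in the level of Tlr7 was not tested.

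Members are set side by side here by whether a promoter held the element. The 9 measured members with the core had a median log2 difference of 0.03, with 6 higher in KO, and the 16 without had -0.08, with 6 higher. Leaving out Slfn5, which was listed for being low, the 8 remaining carriers had a median of 0.04, with 6 higher.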

How the data were processed

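Total RNA of 5 libraries (2 WT, 3 KO) was analysed from 1 deposited table. Per the submitters' processing notes the authors used HISAT2 2.1.0, featureCounts, edgeR 3.20.1 and build mm10. Strand setting, annotation and multi-match handling: not given in the sources used here. The authors deposited a signal per library, CPM scaled to an effective library size and given to 2 decimals, with their log2 fold change, likelihood ratio score, p-value and FDR, quoted here only as theirs. Since single reads are worth 0.0213 to 0.0470 CPM, 99.9777% or more of values below 100 CPM matched a whole read to within 0.0055 CPM, which gave depth and reads. Rounding kept these from the exactness a count model needs, so none was run. Floors cover counting error only.

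Genes reaching 0.5 CPM in 2 or more libraries (14884) were fitted with limma 3.58.1 (R 4.3.3, with trend) to log2(CPM + 1) by genotype, two-sided, with Benjamini-Hochberg adjustment over all of them. Differences are on that scale, which understates changes of low genes. The script was tested on simulated data. Exon lengths and coordinates came from GENCODE M21 (GRCm38), which held 31 of the 35 member IDs in the same version and the other 4 in another. RefSeq promoters cover 250 bases before to 50 after a start, and the 250 were searched. Members, lists and alternatives were chosen with earlier results of these data known. All members were to be named, and from other lists the measured genes with the smallest p, plus defining genes at 0; Ifnar1 was named after its values were seen; some genes are not reported here.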

Additional observations from a re-analysis of the deposited data

How the results depend on the processing

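The number of members past the threshold was 0 with pseudocounts of 0.5 and 5, no filter, a filter of 2 CPM, median-of-ratios scaling, an Xist term and each library left out in turn. With the replicate number as a block it was 2, both lower, of which Ifitm3 had a limma adjusted p of 0.04832. The other was Slfn5, listed for being low in KO, so its pass is a description and not a test. That fit called 390 genes in all, and Rny1 and Rny3 passed (limma adjusted p = 0.01053 and 0.02969). Between same-numbered libraries the members' median KO minus WT difference was -0.12 for each number, with 18 of 26 lower in each, against 0.01 and 0.02 over all genes. No label says what the numbers share, and deviations of same-numbered libraries correlated at 0.414 for replicate 1 and 0.537 for replicate 2 across genes. With only 2 WT libraries their deviations mirror each other, so KO replicate 2 against WT replicate 1 gave -0.537. Deviations of the KO libraries also sum to 0. The 2 correlations are therefore not separate signs that same-numbered libraries belong together. The number of all genes past the threshold was 1 in the reported fit. It was 0 with a pseudocount of 5, no filter, median-of-ratios scaling or an Xist term, and 0 to 8 with 1 library left out. The members' median log2 difference ran from -0.23 to 0.15 when 1 library was left out and moved by less than 0.22, the SD of the KO library medians, throughout. Of 300 values of single members under an alternative, 264 kept sign and side of the threshold, 34 changed sign while within their standard error in at least 1 of the fits, and 2 newly passed, both with the replicate block. Slfn5 stayed between -1.28 and -0.60. Depth limits most the members under 1 CPM, many of which rest on fewer than 30 reads per library.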
